A study of Mus musculus with 12 samples.

Results

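The human-named long intergenic noncoding RNA (lincRNA) probes of a mouse array were followed in the left ventricle after myocardial infarction (MI). Membership was set by ID, as every probe whose name starts with humanlinc, which gave 1104 of 60930 non-control probes, each printed as 1 spot. Earlier results of these data were known when the class was chosen. The arrays came from 12 male C57BL/6J mice in 4 groups of 3 ventricles: WT sham, WT MI, MIAT KO sham and MIAT KO MI. WT mice carried no deletion and were 13 to 14 weeks old at harvest, MIAT KO mice lacked the long noncoding RNA Miat throughout the body and were 15 to 16 weeks old, and all ventricles were taken 4 weeks after surgery. The labels describe the ventricles as independent, so each group rests on 3 animals and age does not overlap between the genotypes.

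LincRNAs are transcripts from between protein-coding genes that are spliced and processed much like messenger RNAs but are not translated into a known protein. As a class they are known for low abundance, tissue-restricted expression and poor sequence conservation between species, and many act in the nucleus on chromatin or splicing. Miat is itself such a transcript and is studied in the heart for a link to infarction. The files do not say how a human name was assigned to a probe on a mouse design, and no probe sequence or position was used here, so each probe is described by its ID and signal only. The probe IDs consist of a lincRNA number, a + or - sign whose meaning the files do not define, and the ending _P1. The 1104 probes share 557 numbers: 547 numbers have a probe of each sign and 10 have only a single probe, and 549 IDs carry a + and 555 a -.

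The share of non-control spots flagged as clearly brighter than background was 82.6% to 88.1% per array, and none was saturated. The file headers put the arrays in 2 scans. Scan 1 held 8 arrays (all WT MI, all KO MI and KO sham replicates 2 and 3) and scan 2 held 4 (all WT sham and KO sham replicate 1). The knockout labels and the tissue label were not checked against marker genes, because the probe IDs are not paired with genes in the tables used here. In bulk tissue, fewer cells of a type and less RNA per cell cannot be told apart.

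Most human-named lincRNA probes gave a signal in this tissue, but fewer than among all probes. Between 770 and 848 of the 1104 probes (69.7% to 76.8%) were well above background on a single array, a flag by which the scanner software marks a spot clearly brighter than its surroundings. Of all 1104, 706 (63.9%) were well above background on all 12 arrays and 150 (13.6%) on none, against 79.0% and 7.0% of all non-control probes. By group, 742 (67.2%) were detected on all 3 arrays in WT sham and 751 (68.0%) in WT MI. The number was 786 (71.2%) in KO sham and 782 (70.8%) in KO MI. Over all non-control probes the shares were 81.0%, 82.1%, 83.4% and 83.7% in the same order of groups. The mouse-named lincRNA probes gave shares like those of the human-named ones, at 67.3%, 68.9%, 71.3% and 72.1%. In all, 816 human-named probes (73.9%) were detected on all 3 arrays of at least 1 group and were tested below. The other 288 were not, of which 138 were detected on at least 1 array. The share of all non-control probes that passed was 85.8%. Because a probe can pass through the group where it is bright, the tested probes are not a random part of the class.

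Detection rarely switched between groups. Only 31 probes were detected on all 3 arrays of exactly 1 group: 11 in WT MI, 13 in KO sham, 7 in KO MI and 0 in WT sham. Such counts were not made over all non-control probes, so those given here have no background beside them. Between the sham groups, 11 probes were detected on 3 KO sham and 0 WT sham arrays, and 0 the other way. From WT sham to WT MI, 7 probes went from 0 to 3 arrays. Of these, humanlincRNA2312+_P1 differed by only 0.41 (SE 0.16, limma adjusted p = 0.081). In the other direction, 3 went from 3 arrays to 0. Those 3, named after their values were seen, were humanlincRNA0141-_P1, humanlincRNA0152+_P1 and humanlincRNA2178-_P1. For humanlincRNA0141-_P1 the WT sham arrays lay at -3.43, -3.58 and -3.69 and the WT MI arrays at -4.62, -4.78 and -4.54, and the knockout sham arrays, from -4.27 to -4.06, were detected on all 3. Levels are log2 signals from which the 75th percentile of the same array's non-control spots was taken, so 0 means a signal at that percentile.

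**Figure D1:**
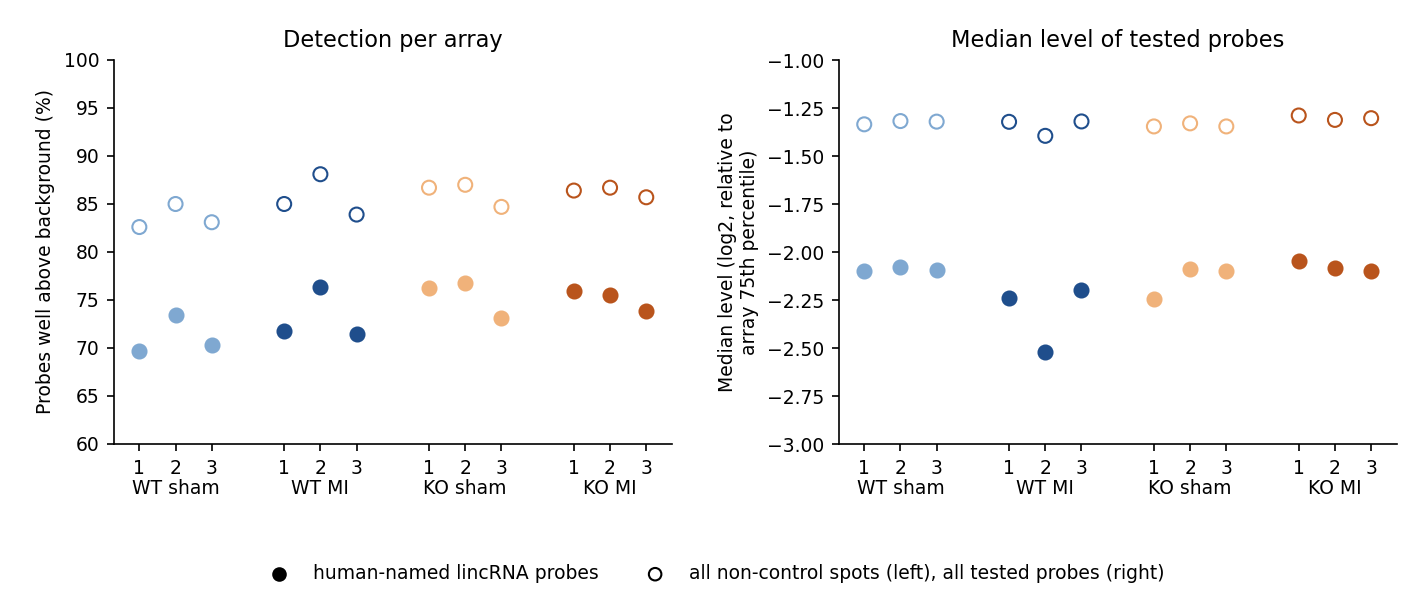
Left, share of spots well above background on each of the 12 arrays, in percent (axis from 60 to 100), for human-named lincRNA probes (filled) and all non-control spots (open). Right, median level on each array (log2, relative to the array's 75th percentile) of the 816 tested human-named probes (filled) and all 52300 tested probes (open). The human-named probes lie below the whole array in both panels, and WT MI replicate 2 has the lowest median at -2.52.

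The human-named lincRNA probes were dim on average but spanned a wide range. The mean level over 12 arrays ran from -6.79 to 8.09 with a median of -2.93, and 116 of the 1104 probes (10.5%) lay above the 75th percentile. Among the 816 tested probes the median was -2.16, against -1.34 over all 52300 tested probes. The brightest were humanlincRNA2397+_P1, at a mean of 8.09 (7.83 to 8.37 over the 12 arrays), humanlincRNA1739+_P1, at 7.85 (7.54 to 8.37), and humanlincRNA0847-_P1, at 7.52 (6.11 to 8.24). None of these 3 was called in any comparison. Their partners of the other sign and the same number were far dimmer, at 0.79 for humanlincRNA2397-_P1, -5.08 for humanlincRNA1739-_P1, which was not tested, and -1.56 for humanlincRNA0847+_P1. Signals of different probes depend on their sequence as well as on the transcript, so this order is one of signal, not of RNA amount. The spread between replicates was close to that of the whole array: the median SD over tested human-named probes was 0.10 in WT sham, 0.23 in WT MI, 0.16 in KO sham and 0.13 in KO MI, against 0.10, 0.21, 0.17 and 0.14 over all tested probes.

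The first comparison asked how these probes differed in the WT ventricle 4 weeks after infarction. The class shifted down: 170 of the 816 tested probes fell and 53 rose (limma, adjusted p under 0.05 after Benjamini-Hochberg adjustment over all probes), while 593 did not pass. That is 20.8% lower and 6.5% higher, beside a background over all tested probes of 13.8% lower and 12.8% higher. The median change of the 816 probes was -0.23 on the log2 scale, against -0.04 over all tested probes, and 574 of them (70.3%) lay below 0, against 53.8%. Under normexp background correction the median was -0.076, against 0.014 over all tested probes, and 128 human-named probes fell (15.7%, against 11.5%). The falls were many and small, with a median of -0.54 among the called probes, and the rises few and larger, with a median of 0.99. Falls were also smaller than rises over all called probes, at medians of -0.53 and 0.84. Of the 816 probes, 30 (3.68%, against 1.61% of all tested probes) changed beyond 2-fold down (log2 difference under -1). Beyond 2-fold up were 40 (4.9%, against 6.08%). The mouse-named lincRNA probes gave like shares, with 99 of 480 lower (20.6%), 29 higher (6.04%) and a median of -0.20 (-0.205).

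The downward shift was present on each WT MI array and was largest on 1 of them. Relative to the WT sham mean, the median tested human-named probe lay at -0.14 on WT MI replicate 1, -0.39 on replicate 2 and -0.11 on replicate 3, and at -0.01, 0.03 and -0.02 on the WT sham arrays. Over all tested probes the medians of the WT MI arrays were -0.03, -0.10 and -0.01. The share of human-named probes below the WT sham mean was 64.8%, 77.3% and 63.6%. In 193 probes (23.7%) all 3 WT MI arrays lay below all 9 other arrays of the study, where the same held for 14.4% of all tested probes; in 23 (2.82%) they lay above all 9, against 9.56%. For the other groups, the 3 WT sham arrays were below all others in 14 human-named probes and above them in 30, beside 2% and 2.57% of all tested probes; the KO sham arrays in 2 and 46, beside 2.55% and 4.27%; and the KO MI arrays in 3 and 12, beside 0.48% and 0.61%.

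The counts depended on single arrays. They were 14 higher and 56 lower without WT sham replicate 1, 20 and 39 without WT sham replicate 2, 23 and 92 without WT sham replicate 3, and 27 and 82 without WT MI replicate 2, where the median change was -0.12. The shares lower in these 4 fits were 6.86%, 4.78%, 11.3% and 10% of the human-named probes, against 4.08%, 3.07%, 7.43% and 6.23% of all tested probes. All WT sham arrays lay on scan 2 and all WT MI arrays on scan 1, so no value within a scan could be had; with scan as a block, which rests on KO sham replicate 1, 9 probes were higher (1.1%, against 4.39% of all tested probes) and 62 lower (7.6%, against 6.12%), with a median of -0.29.

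**Figure D2:**
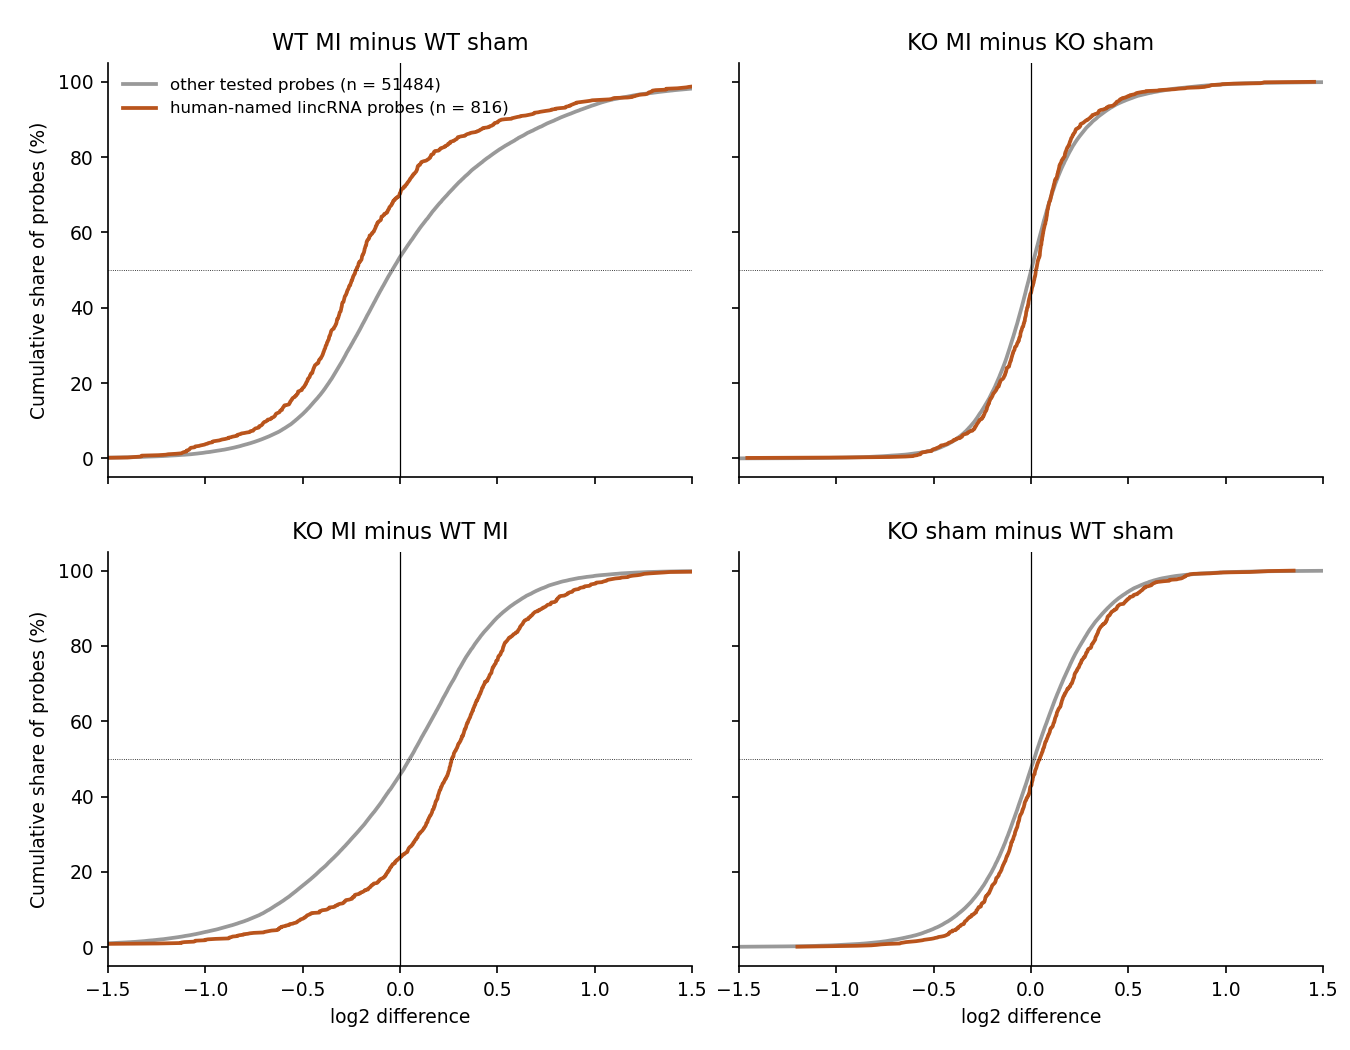
Cumulative share of probes (percent) by log2 difference for 4 comparisons, shown from -1.5 to 1.5, for the 816 tested human-named lincRNA probes (orange) and the other tested probes (grey). The orange curve lies left of the grey one for WT MI minus WT sham (medians -0.23 and -0.04 over all tested probes) and right of it for KO MI minus WT MI (medians 0.27 and 0.05), and the curves nearly coincide for KO MI minus KO sham.

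The downward shift was larger among the brighter probes of the class. When the 816 probes were split by mean level over all 12 arrays into 4 bins of 204, 7.84% of the dimmest bin (levels from -4.76 to -3.26) were called lower and 9.8% higher, with a median change of -0.09. The share called lower was 16.7% in the next bin, 26.5% in the third and 32.4% in the brightest (levels from -0.92 to 8.09), and the median changes were -0.19, -0.29 and -0.29. Other tested probes in the same 4 level ranges were called lower in 6.82%, 10.1%, 16.0% and 16.8%, with median changes of 0.03, -0.04, -0.11 and -0.03. The share of human-named probes called lower was thus closest to that of the other probes in the dimmest bin.

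By the rule for named probes, the rises in WT are shown first in 2 probes close to the limit of detection. For humanlincRNA2010-_P1 the WT sham arrays lay at -6.29, -5.16 and -4.88 and the WT MI arrays at -3.33, -2.58 and -4.02. It was not well above background on any WT sham array and on all 3 WT MI arrays, so it was at least 2.07-fold higher (the WT MI mean over the lowest signal that counts as detected on the WT sham arrays, or the spot's own where that was higher; limma adjusted p = 0.026). humanlincRNA1835+_P1 lay at -5.36, -4.60 and -5.17 in WT sham and at -3.24, -2.43 and -3.55 in WT MI. That made it at least 2.43-fold higher (limma adjusted p = 0.01). Under normexp background correction the log2 differences were smaller than these folds, at 0.68 for humanlincRNA2010-_P1 and 0.71 for humanlincRNA1835+_P1. The bounds thus hold only for the main background correction. WT MI is the only group in which either probe was detected on all 3 arrays, so both entered the test only through the group where they were high, and their p is no independent support. Their WT sham and WT MI arrays did not overlap. By contrast humanlincRNA0638-_P1, detected on all 12 arrays, rose in WT by 1.92 on the log2 scale (SE 0.24, limma adjusted p = 0.0035). In the knockout humanlincRNA1835+_P1 lay at -4.54, -4.45 and -5.33 after sham surgery and at -3.37, -4.67 and -3.50 after MI, and the groups overlapped.

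Among the called probes whose WT groups did not overlap, the 2 largest falls were in probes detected on every array. humanlincRNA1145+_P1, a bright probe, lay at 4.88, 4.84 and 4.93 in WT sham and at 3.91, 3.31 and 3.46 in WT MI. It fell by 1.33 on the log2 scale (SE 0.27, limma adjusted p = 0.0098). All 3 MI arrays were below all 3 sham arrays, and the call held in all 24 alternatives. humanlincRNA2164-_P1 lay at -0.49, -1.01 and -1.12 in WT sham and at -2.02, -2.47 and -2.33 in WT MI, and fell by 1.40 (SE 0.40, limma adjusted p = 0.029). Its KO sham arrays, at -2.78, -1.58 and -0.94, ranged across both WT groups. The call for humanlincRNA2010-_P1 was lost with scan as a fixed or random block and without WT sham replicates 1 or 2 or WT MI replicates 1 or 2, that for humanlincRNA1835+_P1 with scan as a fixed block, and that for humanlincRNA2164-_P1 with the replicate block and without any 1 of the WT sham arrays or WT MI replicate 2. Adjusted p over the alternatives ran from 0.0087 to 0.44 for humanlincRNA2010-_P1, from 0.0071 to 0.076 for humanlincRNA1835+_P1 and from 0.0078 to 0.095 for humanlincRNA2164-_P1.

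**Figure D3:**
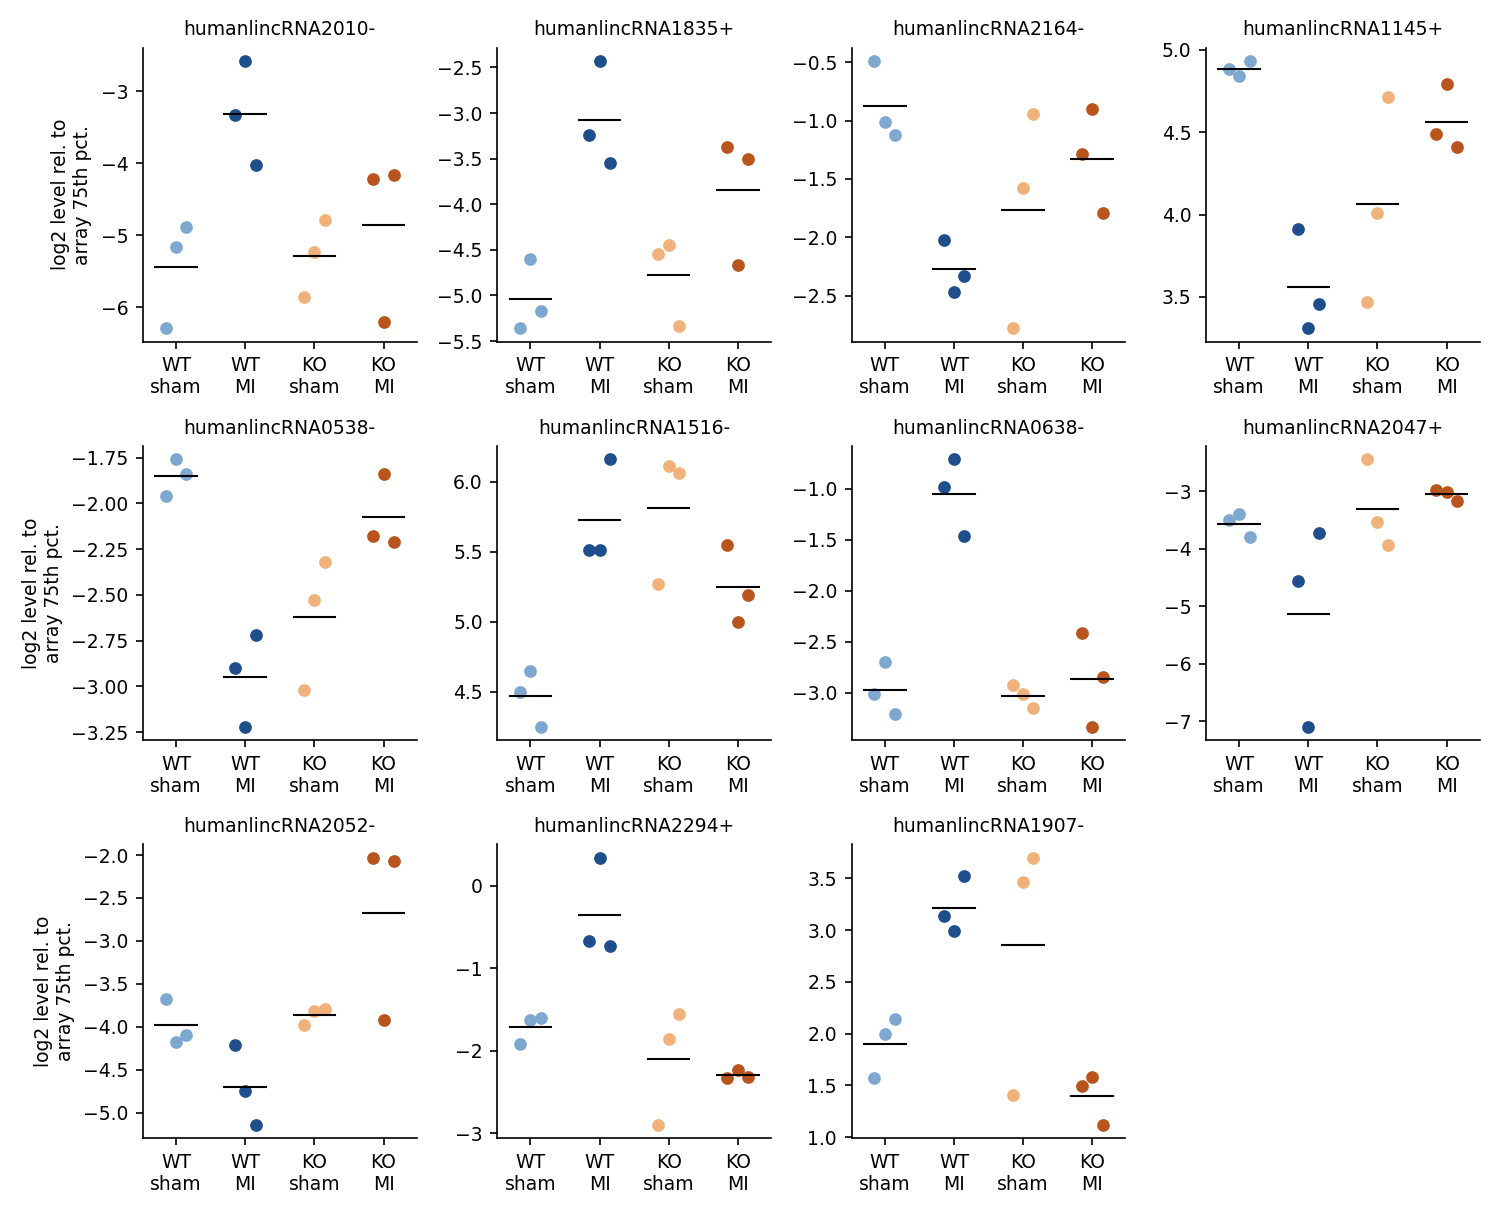
Level of 11 human-named lincRNA probes on each array (log2, relative to the array's 75th percentile), with 3 arrays a group as points and the group mean as a line; each panel has its own axis. They are the probes with the largest called differences in WT after MI, between both MI effects, and between the genotypes after MI. humanlincRNA0638-_P1 is higher on the 3 WT MI arrays (-1.46 to -0.71) than on the other 9 (-3.33 to -2.41).

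In the knockout, the same surgery moved none of these probes past the test. Of 816, 0 were called in either direction in limma (smallest adjusted p 0.42; background 0 of 52300), and 57 (6.99%) had an unadjusted p under 0.05, where 9.36% of all tested probes did. The median change was 0.03, against 0.00 over all probes (0.00196), and 358 probes (43.9%) lay below 0; the median turned to -0.03 under median centring and -0.07 under normexp. Relative to the KO sham mean, the median probe lay at 0.05, 0.02 and -0.04 on the 3 KO MI arrays. Within scan 1, with 3 MI and 2 sham arrays, 0 were called and the median was 0.01. Without KO MI replicate 1, 1 probe was called higher (0.123%, against 0.00382% of all tested probes). In simulated data of this design the test recovered 72% of probes given a log2 change of 1 in this comparison. It recovered 62% for MI in WT, 53% between the genotypes after MI and 33% for the difference between the MI effects. Each simulated probe had the same spread in all 4 groups. The values of the 2-group comparisons thus differ only by random draw and do not rank these comparisons. Few probes were changed in the simulation, whereas many were called in WT after MI, and smaller changes were not simulated.

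The 2 probes with the smallest p in each direction are given as values. humanlincRNA0974+_P1 lay at -4.66, -4.44 and -4.55 in KO sham and at -3.91, -3.73 and -3.78 in KO MI, a difference of 0.74 (SE 0.14, limma adjusted p = 0.42) that was -0.01 under normexp background correction. It was detected on 1 of 3 KO sham arrays, so part of this difference is against signal not well above background. In WT it was detected on 0 sham and 3 MI arrays and was at least 1.6-fold higher after MI (limma adjusted p = 0.0021). WT MI and KO MI are the only groups in which humanlincRNA0974+_P1 was detected on all 3 arrays. It thus entered the test only through groups where it was high, and its p is no independent support. humanlincRNA0111-_P1 had a knockout difference of 0.49 (SE 0.13). humanlincRNA0743-_P1 and humanlincRNA1505+_P1 had differences of -0.50 each (SE 0.12 and 0.13).

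The probes called in WT were then read in the knockout, whose arrays are separate. The 170 probes that fell in WT had a median of -0.54 in WT and of 0.02 in the knockout, where 76 of them (44.7%) lay below 0 and 11 (6.47%, against 6.63% of all tested probes that fell in WT) had an unadjusted p under 0.05 in that direction. The 53 that rose had medians of 0.99 in WT and 0.12 in the knockout, where 36 (67.9%) lay above 0 and 5 (9.43%, against 7.48%) had such a p. Over all tested probes the shares that kept their direction were 51.4% for falls and 60.5% for rises. The WT medians are a description only, since the probes were chosen on them.

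**Figure D4:**
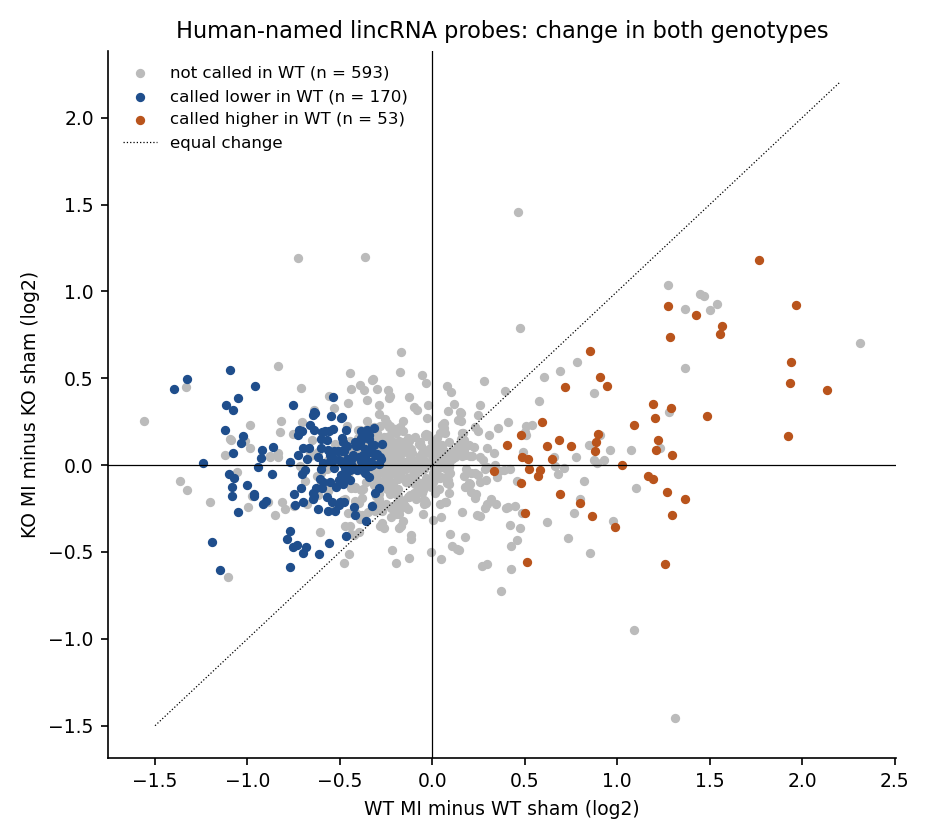
Log2 change after MI in the knockout (vertical) against WT (horizontal) for the 816 tested human-named lincRNA probes, 1 point each; blue, 170 probes called lower in WT; orange, 53 called higher; grey, not called; the dotted line marks equal change. The blue points centre near 0 on the vertical axis (median 0.02) while lying at a median of -0.54 on the horizontal one.

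Whether the response to MI depended on genotype was tested by taking the WT effect of MI from the knockout effect. Of the 816 probes, 20 had a positive difference and 7 a negative one, and 789 did not pass (limma, Benjamini-Hochberg). That is 2.45% and 0.858%, beside 1.6% and 2.14% of all tested probes. Of the 20 positive ones 19 had been called lower in WT, with WT changes from -1.33 to -0.33 and knockout changes from -0.05 to 0.55. The 7 negative ones had all been called higher in WT, with WT changes from 0.51 to 1.92 and knockout changes from -0.57 to 0.17. The median difference over the 816 probes was 0.21 (0.03 over all probes), but it turned to -0.01 under normexp (-0.10 over all probes). The normexp counts were 24 positive (2.94%, against 2.26% of all tested probes) and 31 negative (3.8%, against 6.36%). Under median centring they were 15 (1.84%, against 1.2%) and 10 (1.23%, against 2.82%). Mouse-named lincRNA probes gave a like median of 0.21 in the main fit, with 13 of 480 positive (2.71%) and 1 negative (0.208%). The difference uses the same WT arrays as the first comparison.

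Of the called probes, humanlincRNA1145+_P1 had the largest positive difference, 1.82 (SE 0.38, limma adjusted p = 0.037). Its knockout arrays lay at 3.47, 4.01 and 4.71 after sham surgery and at 4.49, 4.79 and 4.41 after MI, beside the fall in WT given above. For humanlincRNA0538-_P1 the difference was 1.64 (SE 0.27, limma adjusted p = 0.028): WT sham lay at -1.96, -1.76 and -1.84, WT MI at -2.90, -3.22 and -2.72, KO sham at -3.02, -2.53 and -2.32 and KO MI at -2.18, -1.84 and -2.21. In humanlincRNA0538-_P1 the MI arrays were below the sham arrays in WT and above them in the knockout, whereas the knockout arrays of humanlincRNA1145+_P1 overlapped. KO sham replicate 1, the only knockout array on scan 2, was the lowest of its group in both probes.

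Among the called probes, the largest negative differences belonged to a bright and a dim probe. humanlincRNA1516-_P1 lay at 4.50, 4.65 and 4.25 in WT sham, 5.51, 5.51 and 6.16 in WT MI, 5.27, 6.11 and 6.06 in KO sham and 5.55, 5.0 and 5.19 in KO MI (difference -1.83, SE 0.36, limma adjusted p = 0.034). The WT sham arrays alone were low, below all 9 others. humanlincRNA0638-_P1 lay at -3.01, -2.70 and -3.21 in WT sham, -0.98, -0.71 and -1.46 in WT MI, -2.92, -3.01 and -3.15 in KO sham and -2.41, -3.33 and -2.84 in KO MI (difference -1.76, SE 0.35, limma adjusted p = 0.033). Here the WT MI arrays alone were high. Between 12 and 16 of 23 alternatives kept the call for each of these 4 probes. The counts of positive and negative differences were 0 and 0 without WT sham replicate 1 or 2, KO sham replicate 2 or KO MI replicate 2. They were 1 and 0 without WT sham replicate 3 or KO MI replicate 1. Without WT MI replicate 2 they were 11 and 6 (1.35% and 0.735%, against 0.792% and 1.59% of all tested probes). Without KO MI replicate 3 they were 13 and 3 (1.59% and 0.368%, against 1.14% and 1.94%). Without KO sham replicate 1 they were 14 and 11 (1.72% and 1.35%, against 1.15% and 2.46%). Without KO sham replicate 3 they were 40 and 7 (4.9% and 0.858%, against 3.27% and 2.75%). With age as a covariate both were 0, as over all tested probes. With scan as a block they were 57 and 8 (6.99% and 0.98%, against 4.81% and 3.82%).

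Between the genotypes after infarction the class was shifted up in the knockout. Of the 816 probes 182 were higher and 20 lower in KO MI than in WT MI, and 614 did not pass (limma, Benjamini-Hochberg). That is 22.3% and 2.45%, beside 12.7% and 11.4% of all tested probes. The median difference was 0.27, against 0.05, and 194 probes (23.8%) lay below 0. Under normexp the median was 0.115, against 0.009 over all tested probes. Mouse-named lincRNA probes again gave like values, with 118 of 480 higher (24.6%), 17 lower (3.54%) and a median of 0.28. By the same 4 bins of level, 13.7%, 14.2%, 28.4% and 32.8% of the human-named probes were higher from dim to bright, against 8.21%, 10.4%, 15.3% and 13.8% of other probes in the same ranges. This comparison shares its WT MI arrays with the first one, and the values of both are not independent.

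The called probes with the largest differences after MI and no overlap differed in how evenly the arrays agreed. humanlincRNA2294+_P1 lay at -0.67, 0.34 and -0.73 in WT MI and at -2.33, -2.24 and -2.32 in KO MI, a difference of -1.94 (SE 0.34, limma adjusted p = 0.012). The groups were far apart, and the call was kept in 24 of 25 alternatives. humanlincRNA1907-_P1 lay at 3.14, 2.99 and 3.52 in WT MI and at 1.49, 1.58 and 1.12 in KO MI (difference -1.82, SE 0.48, limma adjusted p = 0.027). In KO sham it lay at 1.41, 3.46 and 3.70, with replicate 1 apart from the other two. humanlincRNA2052-_P1 lay at -4.21, -4.75 and -5.14 in WT MI and at -2.03, -3.92 and -2.07 in KO MI (difference 2.03, SE 0.43, limma adjusted p = 0.017). It was detected on 2 of 3 WT MI arrays, so part of its difference is against signal not well above background. humanlincRNA2047+_P1 lay at -4.57, -7.09 and -3.73 in WT MI and at -2.98, -3.02 and -3.17 in KO MI (difference 2.08, SE 0.68, limma adjusted p = 0.049). The latter had WT MI replicate 2 far below the other arrays and was detected on 1 of 3 WT MI arrays, so its difference is largely against signal not well above background; under normexp it was 0.48.

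All 6 arrays of this comparison lay on scan 1, and a fit of that scan alone gave 73 higher (8.95%, against 5.23% of all tested probes) and 18 lower (2.21%, against 6.39%) with the same median of 0.27. The counts were 63 and 13 without KO MI replicate 1, 11 and 6 without KO MI replicate 2, 110 and 15 without KO MI replicate 3 and 70 and 12 without WT MI replicate 2. The shares higher in these 4 fits were 7.72%, 1.35%, 13.5% and 8.58%, against 3.67%, 0.424%, 7.27% and 3.72% of all tested probes. A fit of these 2 groups alone gave 0 higher (against 0.0554% of all tested probes) and 4 lower (0.49%, against 0.593%). With age as a covariate both counts were 0, as over all tested probes, and age and genotype cannot be told apart. The call for humanlincRNA2052-_P1 was lost without KO MI replicate 1 and in the fit of these 2 groups alone, that for humanlincRNA1907-_P1 without WT MI replicate 2 or any 1 of the KO MI arrays, and that for humanlincRNA2047+_P1 in 17 of 24 alternatives; with age as a covariate none of the 4 was called. Adjusted p over the alternatives ran up to 0.85 for humanlincRNA2052-_P1, 0.94 for humanlincRNA1907-_P1, 0.95 for humanlincRNA2294+_P1 and 0.99 for humanlincRNA2047+_P1.

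After sham surgery no human-named lincRNA probe passed between the genotypes in limma (smallest adjusted p 0.083), beside 0.0268% higher and 0.0134% lower over all tested probes. An unadjusted p under 0.05 was found for 122 of the 816 (15.0%), against 17.2% of all tested probes. The median difference was 0.05, against 0.02. The probes with the smallest p had differences of 1.17 for humanlincRNA0248+_P1 (SE 0.19), 0.59 for humanlincRNA1193-_P1 (SE 0.10), -0.67 for humanlincRNA1756+_P1 (SE 0.16) and -0.48 for humanlincRNA1995-_P1 (SE 0.12). For humanlincRNA0248+_P1 the arrays lay at -4.01, -4.00 and -4.08 in WT sham and at -3.01, -2.74 and -2.85 in KO sham, without overlap. The count was 29 higher without WT MI replicate 2 (3.55%, against 1.43% of all tested probes) and 4 higher without KO sham replicate 1 (0.49%, against 0.208%). With scan as a block it was 13 higher (1.59%, against 2.22%) and 17 lower (2.08%, against 2.75%).

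The + and the - probe of a lincRNA number were then set side by side. Of the 547 numbers with a + and a - probe, both were detected on all 3 arrays in 251 numbers in WT sham, 258 in WT MI, 282 in KO sham and 281 in KO MI, and both were tested in 306. In WT after MI, both probes were called in 23 of these 306 numbers: both lower in 14, both higher in 2 and in opposite directions in 7. Singly, 21.6% of the + and 20.6% of the - probes of these numbers were called lower. In a further 122 numbers only a single probe was called, 94 of them lower and 28 higher, and in 161 neither was. Across the 306 numbers, which share the same 6 arrays, the changes of the + and the - probe had Pearson's r = -0.01 and Spearman's rho = 0.00 (-0.000391), and the sign was the same in 178 (58.2%). As 70.3% of the 816 tested human-named probes lay below 0 in WT, unrelated probes would also often share their sign. Tested probes of one sign next to each other in number order, whose numbers need not be consecutive, gave r = 0.03 over 814 neighbours. Pearson's r was -0.06 for MI in the knockout, 0.04 between the genotypes after MI and -0.06 between them after sham surgery. Calls were spread evenly over the signs: 85 of 403 + probes and 85 of 413 - probes fell in WT, and 29 and 24 rose.

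The numbers in which both probes rose, or moved apart, were named after their values were seen. Both probes were called higher in number 0813. humanlincRNA0813+_P1 rose by 0.88 (SE 0.22), while humanlincRNA0813-_P1 was detected on all 3 WT MI arrays and on 0 arrays of every other group, which made it at least 1.44-fold higher and means that it was tested only through the group where it was high. Both also rose in number 0075, by 1.27 (SE 0.35) for humanlincRNA0075+_P1 and by 0.33 (SE 0.09) for humanlincRNA0075-_P1; the former was detected on 1 of 3 WT sham arrays and on all 3 arrays only in WT MI. Opposite calls included 3 probes described above. The partner of humanlincRNA2010-_P1, humanlincRNA2010+_P1, was detected on all 12 arrays and fell by 0.53 (SE 0.14, limma adjusted p = 0.024). The partner of humanlincRNA1145+_P1, humanlincRNA1145-_P1, rose by 0.50 (SE 0.17, limma adjusted p = 0.049). That of humanlincRNA0538-_P1, humanlincRNA0538+_P1, rose by 0.41 (SE 0.11) while humanlincRNA0538-_P1 fell by 1.1 (SE 0.19). Bright humanlincRNA1516-_P1 had a partner, humanlincRNA1516+_P1, that was well above background on 0 of 12 arrays.

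The partners of the other named probes showed both patterns. After MI, humanlincRNA2047-_P1 was higher in the knockout than in WT by 0.34 (SE 0.08, limma adjusted p = 0.023) and humanlincRNA2052+_P1 by 0.38 (SE 0.09, limma adjusted p = 0.021), in the direction of humanlincRNA2047+_P1 and humanlincRNA2052-_P1. The partners of the 2 lower probes did not pass, at 0.33 (SE 0.15) for humanlincRNA2294-_P1 and 0.17 (SE 0.15) for humanlincRNA1907+_P1. Neither did humanlincRNA1835-_P1 in WT after MI, at -0.40 (SE 0.24), nor the difference between the MI effects for humanlincRNA0638+_P1, at 0.01 (SE 0.15), humanlincRNA0538+_P1, at -0.29 (SE 0.15), or humanlincRNA1145-_P1, at -0.77 (SE 0.24). In the comparisons without calls, partner differences were 0.02 for humanlincRNA0111+_P1, 0.20 for humanlincRNA0743+_P1 and -0.26 for humanlincRNA1505-_P1 in the knockout after MI, and -0.11 for humanlincRNA1756-_P1 and 0.38 for humanlincRNA1995+_P1 between the genotypes after sham surgery. Partners that were not tested were humanlincRNA2164+_P1 and humanlincRNA0248-_P1, detected on 0 arrays, and humanlincRNA0974-_P1 and humanlincRNA1193+_P1, each detected on 1.

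**Figure D5:**
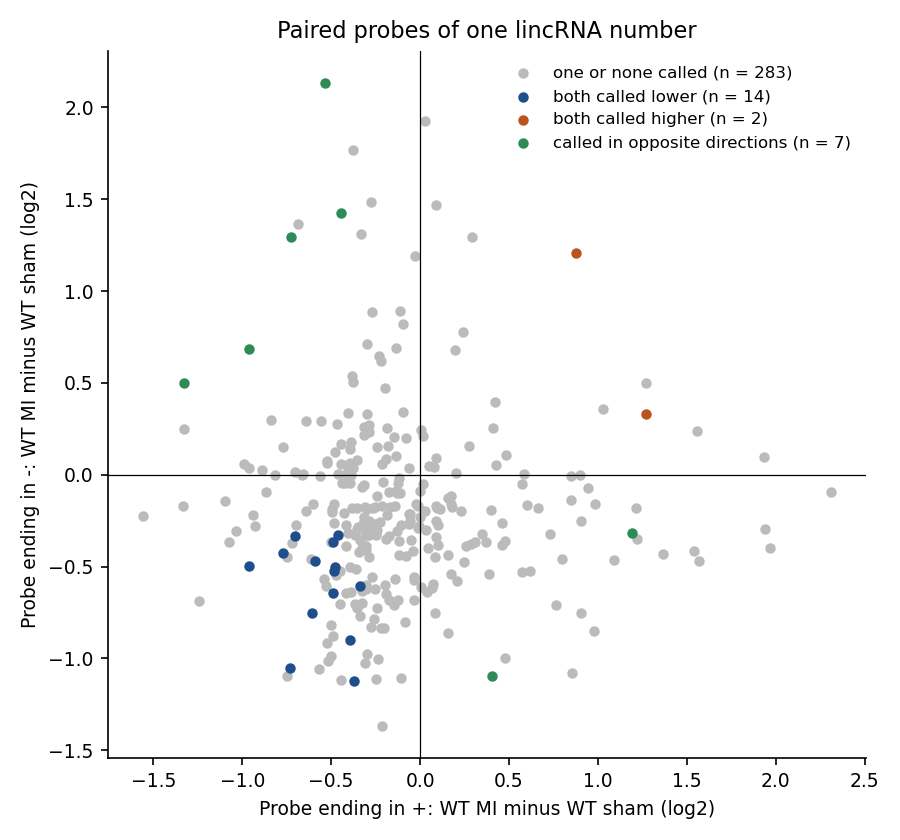
Log2 change in WT after MI of the - probe (vertical) against the + probe (horizontal) of the same lincRNA number, for the 306 numbers with both probes tested. Colours mark numbers with both probes called lower (14), both higher (2) or in opposite directions (7); the points spread along both axes with Pearson's r = -0.01.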

How the data were processed

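RNA was depleted of ribosomal RNA, amplified by random priming and labelled with Cy3, per the labels' protocols. Spot intensity on a linear scale is what the deposited scanner files hold; the submitters' processing notes name Agilent Feature Extraction 11.0.1.1 as the tool, and the design lists build mm9, per the file headers. A deposited table of the authors' own normalized values, log2 by their range, served as an alternative.

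From the log2 of the background-corrected signal, the 75th percentile of non-control spots on the same array was subtracted. Outlier-flagged spots were set missing (2 among the members' spots over all arrays). Probes well above background on all 3 arrays of at least 1 group were tested, 52300 in all, leaving out 5 negative controls by name, with limma 3.58.1 in R 4.3.3 in 1 fit that gave each group a mean over all 12 arrays. Called means a Benjamini-Hochberg adjusted p under 0.05. The fit was tested on simulated data with known changes.

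Probes named are the 2 higher and 2 lower with the largest called differences that were detected in the brighter group without overlap, or else those with the smallest p, plus the 3 brightest. Members and lists were chosen with earlier results of these data known. Planned lists of cell type markers were not run, as probe IDs are not paired with genes. Figures were drawn with matplotlib 3.10.9.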

Additional observations from a re-analysis of the deposited data

Results flagged for a closer look

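The response to MI differed between the genotypes by the test of the difference itself (limma, Benjamini-Hochberg) for 20 human-named lincRNA probes with a positive and 7 with a negative difference, knockout minus WT. That is 2.45% and 0.858%, beside 1.6% and 2.14% of all tested probes. Both counts were 0 with age as a covariate, with the replicate block, and without WT sham replicate 1, WT sham replicate 2, KO sham replicate 2 or KO MI replicate 2. The largest among the called probes were 1.82 for humanlincRNA1145+_P1, 1.64 for humanlincRNA0538-_P1, -1.83 for humanlincRNA1516-_P1 and -1.76 for humanlincRNA0638-_P1.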

How the results depend on the processing

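The median fall of the class in WT after MI and its higher median in KO MI than in WT MI kept their direction in every alternative run. Between the genotypes after MI the calls were 0 higher (against 0.0554% of all tested probes) and 4 lower (0.49%, against 0.593%) in a fit of those 2 groups alone. For WT after MI the counts were 9 higher (1.1%, against 4.39% of all tested probes) and 62 lower (7.6%, against 6.12%) with scan as a block. They were 13 (1.59%, against 5.7%) and 63 (7.72%, against 5.16%) with scan as a random block. A fit of the 2 groups alone gave 84 lower (10.3%, against 7.59%). The median change was -0.076 under normexp. Leaving out single arrays gave 14 (1.72%, against 4.88%) to 63 (7.72%, against 13.2%) higher. The counts lower were 39 (4.78%, against 3.07%) to 229 (28.1%, against 17.7%), with medians from -0.28 to -0.12. For MI in the knockout the median was -0.07 under normexp, and single arrays left out gave 0 to 1 higher (0.123%, against 0.00382%) and 0 to 0 lower. For the interaction of surgery and genotype, positive and negative counts were 10 and 4 both in the authors' values and after quantile normalization. These were 1.23% and 0.49%, against 1.12% and 0.651% of all tested probes in the authors' values and 1.11% and 0.644% after quantile normalization. With no filter on dim probes the counts were 9 and 2 (0.815% and 0.181%, against 0.47% and 0.849%). With age as a covariate they were 0 and 0, as over all tested probes. With scan as a block 57 were positive (6.99%, against 4.81%). Under normexp 31 were negative (3.8%, against 6.36%), with a median of -0.011. The median over all tested probes moved there from 0.03 to -0.10 under normexp. Leaving out single arrays gave 0 to 40 positive (4.9%, against 3.27%) and 0 to 11 negative (1.35%, against 2.46%), with medians from 0.11 to 0.27. Between the genotypes after MI, 73 were higher within scan 1 (8.95%, against 5.23%). With age as a covariate 0 were higher and 0 lower, as over all tested probes, and the median was 0.12 under normexp. Single arrays left out gave 11 (1.35%, against 0.424%) to 246 (30.1%, against 17%) higher. The counts lower were 6 (0.735%, against 1.39%) to 27 (3.31%, against 13.6% or 14.5%), with medians from 0.18 to 0.31. After sham surgery, 6 were higher under normexp (0.735%, against 0.331%) with a median of 0.13. With scan as a block 13 were higher (1.59%, against 2.22%) and 17 lower (2.08%, against 2.75%). The median was -0.017 with age as a covariate. Single arrays left out gave 0 to 29 higher (3.55%, against 1.43%) and 0 to 0 lower. Causes were not tested. With the replicate block, the counts were 0 positive and 0 negative for the interaction (against 0.0172% and 0.178% of all tested probes). Between the genotypes after MI 120 were higher with it (14.7%, against 7.64%). Replicate numbers share no animal, deviations of same-numbered arrays correlated between -0.34 and 0.34, and no pairing was assumed. Reversed probes were humanlincRNA0974+_P1, at -0.01 under normexp in the knockout, and, with age as a covariate, humanlincRNA2047+_P1 at -0.13 and humanlincRNA1907-_P1 at 0.53 between the genotypes after MI. Detection in at least 1 group was 817 to 831 probes with single arrays left out. The positive-and-significant flag in place of the well-above-background flag gave 1002. Dim probes limit the folds near background, and 3 arrays a group limit the precision.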
